A study of Mus musculus with 12 samples.

Results

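The 49 genes described here encode proteins that license replication origins, unwind and copy DNA, supply nucleotides and carry a cell from G1 into S phase. They were chosen by symbol from a list of known replication and S phase genes, not by their values. Earlier results of these data were known when they were chosen. Each matched 1 of the 51826 genes of the count table. By role they are 5 genes of origin recognition and licensing (Orc1, Orc6, Cdc6, Cdt1, Gmnn), 7 of the MCM helicase with Mcm10 (Mcm2 to Mcm7, Mcm10) and 6 of helicase activation (Gins1, Gins2, Gins3, Cdc45, Cdc7, Dbf4). A further 9 encode the sliding clamp, its loader and the single-strand binding protein RPA (Pcna, Rfc1 to Rfc5, Rpa1, Rpa2, Rpa3), and 8 encode polymerase and primase subunits or Okazaki fragment enzymes (Pola1, Pola2, Pold1, Pole, Prim1, Prim2, Fen1, Lig1). The remaining genes serve nucleotide supply (4 genes: Rrm1, Rrm2, Tyms, Tk1), G1/S regulation (7 genes: Ccne1, Ccne2, E2f1, E2f2, E2f7, E2f8, Cdc25a) and chromatin assembly with histone mRNA (3 genes: Chaf1a, Chaf1b, Slbp).

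RNA-Seq compared 6 cell lines transduced with the empty retroviral vector pMIG (EV) and 6 transduced with BCR-ABL1 in the same vector, the fusion kinase of Philadelphia chromosome-positive leukemia. All lines were pro- or pre-B cells grown from bone marrow of 2 C57BL/6 mice, with 3 lines (A, B and C) per mouse and condition. The paper describes the triplicates as made in 3 separate experiments, and the sample titles do not say whether the letters name these. All lines were first cultured with IL7, the cytokine that normal pre-B cells need. BCR-ABL1 lines were studied after a withdrawal of the cytokine that lasted 1 week, by which time they had transformed, and the EV lines, selected by a GFP sort, received it throughout. BCR-ABL1 and the removal of IL7 therefore cannot be told apart in any comparison below, and since lines of one mouse share an animal, p-values measure the spread between lines. Every one of the 49 genes passed the filter on low counts, and the lowest count of any of them in any line was 523.

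A cell copies its genome once per division in 2 separated steps. In G1 the origin recognition complex, Cdc6 and Cdt1 load the MCM ring onto DNA, and in S phase the kinase Cdc7 with its partner Dbf4 and cyclin E-dependent kinase activity let Cdc45 and the GINS complex join the ring to form the active helicase. Geminin, the product of Gmnn, blocks renewed loading until division is over. Most of these genes are transcribed in late G1 and S phase under E2F transcription factors, so in a dividing population their RNA follows both the share of cells in these phases and the RNA per cell. In bulk RNA those contributions cannot be told apart. Large pre-B cells are among the fastest dividing cells of the bone marrow, and they stop cycling when they become small pre-B cells that rearrange light chain genes.

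Promoter sequence shows what many of these genes share. RefSeq promoter windows on GRCm38.p6, from 250 bases before to 50 bases after the transcription start, were available for 41 of the 49 genes. The E2F words TTTCCCGC, TTTGGCGC, TTTCGCGC and TTTGCCGC were searched on both strands, and words on opposite strands may overlap. At least 1 word stood in the windows of 15 of the 41 genes (36.6%), against 704 of 27025 genes in the whole table (2.6%). The 15 are Orc1, Cdc6, Cdt1, Mcm3, Mcm5, Mcm6, Mcm7, Gins3, Rfc3, Pola1, Pold1, Lig1, E2f2, E2f7 and Cdc25a. TTTGAA, the core of the CHR element found in many late cell cycle genes, stood in 8 of the 41 (19.5%), close to its share of 20.2% in all genes. The 6 stretches printed next were chosen after values were seen, to show the words in genes of loading (Orc1, Cdc6, Mcm5, Mcm6), helicase activation (Gins3) and regulation (E2f7). They run in the direction of transcription, and capitals mark the match. They lie at chr4:108579394-108579453 (plus strand, Orc1), chr11:98907987-98908046 (plus strand, Cdc6), chr8:75109332-75109391 (plus strand, Mcm5), chr1:128359780-128359839 (minus strand, Mcm6), chr8:95633492-95633551 (plus strand, Gins3) and chr10:110745215-110745274 (plus strand, E2f7).
Orc1: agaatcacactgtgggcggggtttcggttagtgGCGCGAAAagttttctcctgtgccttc
Cdc6: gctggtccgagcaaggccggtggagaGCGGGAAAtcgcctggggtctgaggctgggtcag
Mcm5: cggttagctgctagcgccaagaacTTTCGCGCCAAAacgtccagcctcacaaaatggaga
Mcm6: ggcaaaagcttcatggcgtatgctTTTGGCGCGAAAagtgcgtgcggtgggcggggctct
Gins3: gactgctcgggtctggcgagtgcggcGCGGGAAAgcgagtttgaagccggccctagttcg
E2f7: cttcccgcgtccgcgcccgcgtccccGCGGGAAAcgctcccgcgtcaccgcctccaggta
In Mcm5 and Mcm6 a word on each strand overlaps to a single 12-base stretch, whereas the other windows hold a single word in the part shown. A match is a description of letters, not a measured binding site.

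Total counts were between 34791011 and 66011225 per line, with the lowest in EV line 2A. Of 12 B lineage markers examined, 10 were at 14.5 CPM (counts scaled to equal library size) or more in every line. The exceptions were Rag2, at 0.938 CPM or more, and Dntt, which ranged from 0.101 to 18.5 CPM in EV lines and from 31.6 to 179 CPM in BCR-ABL1 lines and was called higher. EV lines 2A and 2B stood apart from the other lines both in the replication genes and in the summed level of the B lineage markers. Abundant markers weigh most in that sum. Their summed B lineage level was 8003 and 7553 CPM, against 4921 to 5396 CPM in the other EV lines and a range of 4915 to 5677 CPM over BCR-ABL1 lines. Only Rag1 and Cd79b are given for these lines here, and the direction of the other markers in them is not stated. The recombinase gene Rag1 was at 90.0 and 147 CPM in these EV lines, against 14.5 to 33.9 CPM in the other EV lines. The receptor chain gene Cd79b was at 668 and 963 CPM against 299 to 345 CPM. The part of this difference in the results below was not tested, and each main count is also given without both lines. Summed myeloid markers reached at most 1.53 CPM in EV lines, with a range of 1.78 to 4.43 CPM for BCR-ABL1 lines, with Fcgr3 called higher and Elane, S100a8 and S100a9 at 3 or fewer counts everywhere. Erythroid markers summed to 1.26 to 6.79 CPM and 5.94 to 12.7 CPM, with Hbb-bt called higher and both Hba genes at the same floor. T and NK (at most 3.76 CPM, Cd3d called lower, Nkg7 and Ncr1 at the floor), mast cell and basophil (at most 0.245 CPM, Cpa3, Fcer1a, Mcpt8 and Mcpt4 at the floor) and stromal markers (at most 1.41 CPM, Lum at the floor) were also low in both conditions.

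All 49 genes were expressed in both conditions, at levels that differed widely between roles. To compare genes, CPM was divided by exon length in kilobases, which gives FPKM. Pcna, the sliding clamp that tethers polymerases to DNA, was the most abundant, at 209 ± 31.7 FPKM in EV lines and 262 ± 14.6 FPKM in BCR-ABL1 lines (mean ± SD, n = 6 each). Rrm2, the small subunit of ribonucleotide reductase that makes deoxyribonucleotides, followed with the MCM ring, and Rrm2 was at 94.0 ± 23.4 and 111 ± 5.25 FPKM (SD, n = 6). Among the MCM subunits Mcm6 (92.4 ± 20.6 and 112 ± 5.85 FPKM, SD, n = 6) and Mcm7 (92.5 ± 18.7 and 112 ± 7.87 FPKM, SD, n = 6) were the highest. These neighbours differed by less than their spread in each condition. The ring subunits Mcm3 to Mcm7 lay within 64.8 to 92.5 FPKM in EV lines and 85.5 to 112 FPKM in BCR-ABL1 lines, and Mcm2 was lower, at 45.0 and 51.3 FPKM.

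**Figure D1:**
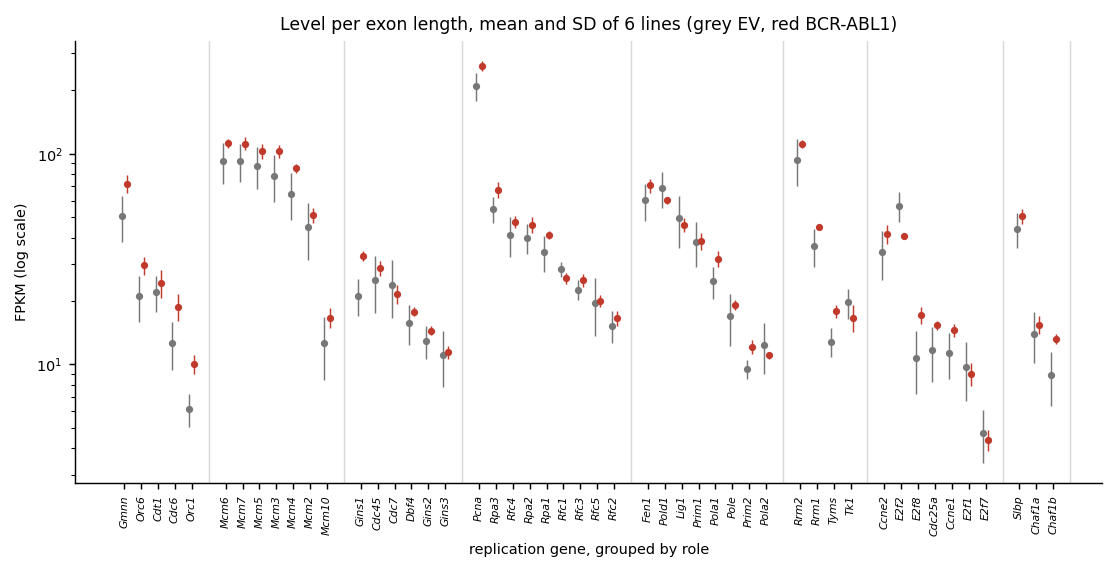
Mean FPKM of each replication gene (log axis, bars SD of 6 lines) in EV lines (grey) and BCR-ABL1 lines (red), grouped by role. Pcna stands highest, at 209 and 262 FPKM, and E2f7 lowest, at 4.74 and 4.37 FPKM.

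Exons of 15 of the 49 genes overlap a tested gene on the opposite strand, and the strand setting of the counting is not given in the sources used here. For 6 of them the partner had at least 50% of the gene's CPM, namely Ccne2 (Ints8), Cdc45 (Ufd1), Fen1 (Tmem258), Gins2 (Gse1), Orc6 (Vps35) and Rfc4 (Eif4a2), so values of these 6 are less certain.

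In the other roles the geminin gene Gmnn (50.8 ± 12.5 and 72.1 ± 7.10 FPKM, SD, n = 6) was the most abundant licensing gene. Below it Cdt1 (22.1 ± 4.31 FPKM) and Orc6 (21.1 ± 5.14 FPKM) differed by less than their SD in EV lines, and Orc6 (29.6 ± 2.91 FPKM) was followed by Cdt1 (24.3 ± 3.64 FPKM) in BCR-ABL1 lines. In helicase activation Cdc45 (25.1 ± 7.48 FPKM), Cdc7 (23.9 ± 7.34 FPKM) and Gins1 (21.2 ± 4.25 FPKM) were the highest in EV lines and differed by less than their SD. In BCR-ABL1 lines Gins1 led at 32.9 ± 1.75 FPKM, ahead of Cdc45 at 28.7 ± 2.3 FPKM (SD, n = 6). Rpa3, the small RPA subunit, was second to Pcna in its role, at 54.9 ± 7.79 and 67.5 ± 5.64 FPKM. Flap endonuclease Fen1 (60.1 ± 12.0 and 70.8 ± 5.46 FPKM) and the polymerase delta catalytic subunit Pold1 (68.6 ± 13.4 and 60.3 ± 2.41 FPKM) led the polymerase role, with the order of the pair exchanged between the conditions, although in EV lines they differed by less than their SD. Rrm1, the large reductase subunit, was second in nucleotide supply (36.6 ± 7.46 and 44.9 ± 1.58 FPKM). The transcription factor gene E2f2 (56.5 ± 9.14 and 40.7 ± 1.42 FPKM) and the cyclin E gene Ccne2 (34.1 ± 8.93 and 41.7 ± 4.25 FPKM) were highest among G1/S regulators. Slbp, which binds the stem-loop of histone mRNA, was at 44.1 ± 8.38 and 50.7 ± 4.10 FPKM and stood above Chaf1a, a chromatin assembly subunit (14.0 ± 3.82 and 15.4 ± 1.51 FPKM).

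The first comparison asks whether the replication genes differ between BCR-ABL1 and EV lines. None of the 49 was called higher and none lower than 1.5-fold (edgeR glmTreat on the quasi-likelihood fit, Benjamini-Hochberg FDR under 0.05 over 15038 genes), whereas 5.99% of all tested genes were called higher and 6.49% lower. At an unadjusted p under 0.05 the count was also 0, and the likelihood ratio fit (background 13.5% of all genes in either direction) and DESeq2 (9.62%) called 0 as well. Log2 fold changes ranged from -0.47 (E2f2) to 0.71 (Orc1) with a median of 0.22, against -0.02 over all tested genes. The change was positive in 40 genes, against 48.3% of all tested genes. The 9 negative ones were Cdc7, Rfc1, Pola2, Pold1, Lig1, Tk1, E2f1, E2f2 and E2f7. The differences were small, and most of them were positive.

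Against no change instead of 1.5-fold, 13 genes were higher (Orc1, Orc6, Cdc6, Gmnn, Mcm4, Gins1, Pcna, Rpa3, Pola1, Prim2, Tyms, E2f8 and Chaf1b) and 1 was lower (E2f2), and the background was 22.5% of all genes higher and 25.9% lower. All 6 BCR-ABL1 lines lay above all 6 EV lines in 12 genes, with 12.1% of all genes in the background, and below them in 0, with a background of 13.5%. The 12 are Orc1, Orc6, Cdc6, Gmnn, Mcm3, Mcm4, Gins1, Pcna, Pola1, Prim2, Tyms and Chaf1b. Leaving out EV lines 2A and 2B can only add to these genes. It added none above (background 17.5%) and put Pola2, Pold1 and Lig1 below (background 17.3%). The median log2 fold change of the 49 genes dropped to 0.06, with 30 positive (background 48.9%). No gene was called at 1.5-fold without these lines (0 at an unadjusted p under 0.05), against 15.5% of all genes.

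Licensing genes had the largest median log2 fold change of the 8 roles, at 0.51. Orc1, the ATPase subunit of the origin recognition complex (chr4:108579423-108614833), was at 20.6, 20.7 and 19.7 CPM in EV lines A, B and C of mouse 1 and at 16.0, 26.1 and 25.7 CPM in mouse 2. BCR-ABL1 lines had 35.6, 28.4 and 33.9 CPM in mouse 1 and 37.2, 38.7 and 36.2 CPM in mouse 2. Every BCR-ABL1 line was above every EV line. Its log2 fold change was 0.71 (SE 0.12, glmTreat FDR = 0.267, two-sided exact permutation p = 0.00216, the smallest that 6 lines against 6 allow). The change was alike in mouse 1 (0.69) and mouse 2 (0.74). Groups without overlap always give this smallest p, so here and in the genes below it only restates the separation. Cdc6, which loads the MCM ring together with Orc1, had a lowest, median and highest level of 42.6, 72.5 and 82.3 CPM in EV lines and 83.6, 97.4 and 118 CPM in BCR-ABL1 lines, again without overlap. Its log2 fold change was 0.57 (SE 0.19), with 0.15 in mouse 1 and 1.03 in mouse 2. Gmnn, the inhibitor of loading, likewise did not overlap (47.1, 79.8 and 95.6 CPM against 97.8, 103 and 125 CPM), and its log2 fold change was 0.51 (SE 0.17). Cdt1, the partner of Cdc6 and target of geminin, overlapped between the conditions and had a log2 fold change of 0.14 (SE 0.15). Orc6, a small subunit of the origin recognition complex, did not overlap either, with a log2 fold change of 0.49 (SE 0.17). Without EV lines 2A and 2B the changes were 0.68 (Orc1), 0.35 (Cdc6), 0.30 (Gmnn), 0.27 (Orc6) and -0.03 (Cdt1).

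The MCM genes differed little between the conditions. Mcm10, a scaffold needed to start unwinding (chr2:4989714-5012791), had the largest change of this role, with lowest, median and highest levels of 50.1, 113 and 128 CPM in EV lines and 112, 128 and 143 CPM in BCR-ABL1 lines. The groups overlapped, since 4 of the EV lines lay at 113 to 128 CPM, and the log2 fold change was 0.41 (SE 0.24, two-sided exact permutation p = 0.0411 over all splits and 0.065 when lines were exchanged within each mouse). All 6 ring subunits had positive changes, from 0.19 in Mcm2 to 0.40 in Mcm4 on the log2 scale. Without EV lines 2A and 2B they ran from -0.07 in Mcm2 to 0.18 in Mcm4, and Mcm10 was at 0.12. In each of the 7 genes EV line 2B was the lowest of the 12 lines.

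In helicase activation the GINS subunit gene Gins1 (chr2:150905400-150931280) stood apart from its partners. It was at 31.7, 34.2 and 37.9 CPM in EV lines of mouse 1 and 28.5, 21.7 and 39.0 CPM in those of mouse 2, and at 48.6, 47.6 and 48.9 CPM and 54.9, 50.4 and 48.5 CPM in BCR-ABL1 lines, so that the lowest BCR-ABL1 line was above the highest EV line. The log2 fold change was 0.63 (SE 0.13, glmTreat FDR = 0.541; exact permutation p = 0.00216, two-sided). Gins2 and Gins3, which encode other subunits of the same complex, had log2 fold changes of 0.17 (SE 0.12) and 0.04 (SE 0.19) and overlapped.

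Pcna (chr2:132249162-132253314) led the clamp group in size of change, with 363, 532 and 561 CPM as lowest, median and highest in EV lines and 590.5, 619 and 687 CPM in BCR-ABL1 lines. These ranges did not overlap, and the log2 fold change was 0.32 (SE 0.10, exact permutation p = 0.00216, two-sided). The 5 clamp loader genes were nearer to 0, from -0.14 in Rfc1, the large subunit, to 0.20 in Rfc4, and the 3 RPA genes were between 0.20 (Rpa2) and 0.30 (Rpa3). Rfc1 was one of 3 genes whose lowest line was a BCR-ABL1 line.

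Subunits of DNA polymerase alpha, the polymerase that starts each strand with primase, had changes on both sides of 0. Pola1, the catalytic subunit (chrX:93304767-93632155), was at 153, 236 and 249 CPM in EV lines and 260.3, 273 and 327 CPM in BCR-ABL1 lines (lowest, median, highest) without overlap, with a log2 fold change of 0.36 (SE 0.12, exact permutation p = 0.00216, two-sided). Prim2, the large primase subunit, was also without overlap (log2 fold change 0.35, SE 0.08). Pola2, the accessory subunit, and Prim1, the catalytic primase subunit, overlapped and had log2 fold changes of -0.17 (SE 0.17) and 0.01 (SE 0.16). The replicative polymerase genes Pold1 and Pole were at -0.19 and 0.18, the ligase gene Lig1 at -0.10 and Fen1 at 0.24 on the same scale, with all ranges overlapping.

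Nucleotide supply also held changes of both signs. Tyms, thymidylate synthase of the de novo dTMP route (chr5:30058202-30073617), was at 74.4, 73.0 and 76.9 CPM in EV lines of mouse 1 and 83.2, 62.2 and 99.1 CPM in those of mouse 2, and at 115, 116 and 115 CPM and 110.2, 99.6 and 100.2 CPM in BCR-ABL1 lines. All BCR-ABL1 lines were above all EV lines, by a narrow margin over EV line 2C, and the log2 fold change was 0.48 (SE 0.10; exact permutation p = 0.00216, two-sided). Tk1, the thymidine kinase of the salvage route, had a log2 fold change of -0.24 (SE 0.13) with overlapping lines, 77.4, 99.4 and 125 CPM in EV lines and 74.0, 87.3 and 100 CPM in BCR-ABL1 lines (lowest, median, highest). When lines were exchanged within each mouse the exact permutation p of Tk1 was 0.01, against 0.106 over all splits (both two-sided). Tyms and Tk1 were also the only members whose change was not larger in mouse 2 than in mouse 1.

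Among G1/S regulators the atypical repressor gene E2f8 (chr7:48866429-48881596) had the largest change, with 36.3, 61.0 and 82.6 CPM in EV lines and 78.5, 97.5 and 100.2 CPM in BCR-ABL1 lines (lowest, median, highest). EV line 1A, at 82.6 CPM, was above BCR-ABL1 line 2A, at 78.5 CPM, so the groups overlapped. The log2 fold change was 0.67 (SE 0.22, glmTreat FDR = 0.519; exact permutation p = 0.00433, two-sided). E2f2, an activator, had the lowest value of all 49, with 199, 278 and 336 CPM in EV lines and 186, 200.4 and 206 CPM in BCR-ABL1 lines and a log2 fold change of -0.47 (SE 0.10; exact permutation p = 0.013, two-sided). Only EV line 2C, at 199 CPM, lay within the BCR-ABL1 range. The cell cycle phosphatase gene Cdc25a had a log2 fold change of 0.39 (SE 0.20), and of 0.13 without EV lines 2A and 2B. Among the E2F genes the repressor E2f8 alone was positive. The activators E2f1 (-0.11) and E2f2 and the repressor E2f7 (-0.12) were negative. In the chromatin group Chaf1b, a subunit of chromatin assembly factor 1, did not overlap between the conditions. It was at 23.4, 46.0 and 52.8 CPM in EV lines and 58.1, 60.9 and 66.7 CPM in BCR-ABL1 lines (lowest, median, highest). Its log2 fold change was 0.57 (SE 0.19), whereas its partner Chaf1a was at 0.14 (SE 0.18). Without EV lines 2A and 2B these changes were 0.33 and -0.09.

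**Figure D2:**
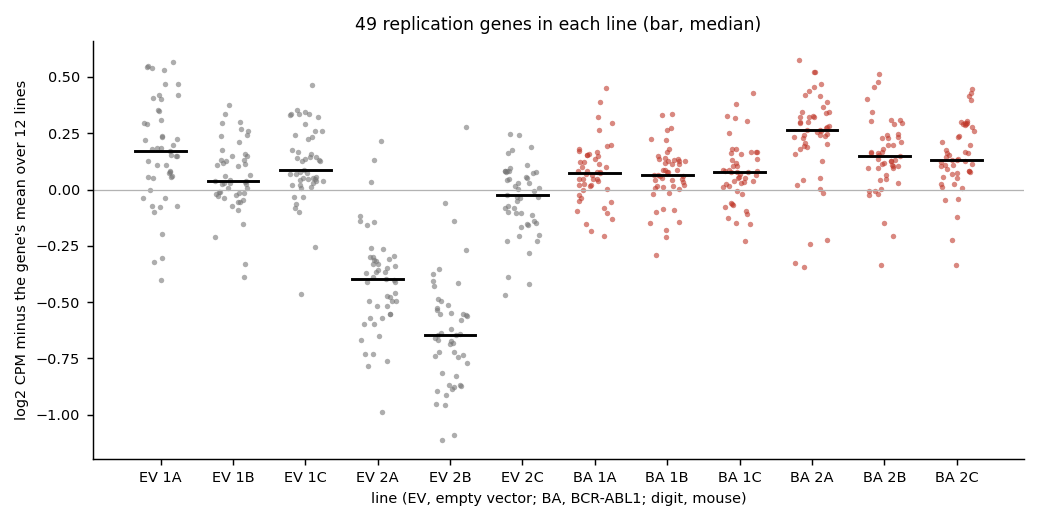
Log2 CPM of each of the 49 replication genes relative to its own mean over the 12 lines (points) and the median of the genes (bars), by line. EV lines 2A and 2B lie at medians of -0.40 and -0.65, whereas the 6 BCR-ABL1 lines lie at 0.07 to 0.26.

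The replication genes varied mainly among the EV lines. The median SD of log2 CPM over the 6 EV lines was 0.355, against 0.105 over the 6 BCR-ABL1 lines, and the EV value was larger in 49 of the 49 genes. Over all tested genes the medians were 0.329 and 0.171, and the EV value was larger in 80.7%. Within EV lines of mouse 1 the median SD was 0.097 and within those of mouse 2 it was 0.328 (0.120 and 0.325 over all tested genes). As the plot of deviations by line shows, EV lines 2A and 2B lay furthest below the others. The spread without them was not computed. EV line 2B was the lowest of all 12 lines in 44 genes (background 19.4% of all genes), and EV line 2A or 2B was the lowest in 46 (background 25.8%). In 42 genes both were below each of the other 10 lines (background 14.2%). The exceptions to a lowest EV line were Rfc1 (BCR-ABL1 line 1A), Tk1 (BCR-ABL1 line 2B) and E2f2 (BCR-ABL1 line 2A). EV line 2C of the same mouse was above 2A and 2B in 46 genes, all but Orc1, Rfc1 and E2f2 (background 38%), and its median deviation of -0.02 was near that of the mouse 1 EV lines (0.04 to 0.17). At the other end BCR-ABL1 line 2A had the highest level of the 12 lines in 23 genes and EV line 1A in 16. The share of all genes for these counts was not computed.

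The change was therefore also compared between the mice. In mouse 1 lines alone 0 of the 49 genes were called, against 28.5% of all genes in either direction. The median log2 fold change was -0.03 and 22 genes were positive (background 48.8%). In mouse 2 lines alone 0 were called, against 6.64% of all genes. There the median was 0.53 and 46 were positive (background 49.9%), all but Pold1, Tk1 and E2f2. The difference itself is the interaction of mouse with condition, the log2 fold change of mouse 2 minus that of mouse 1. It was called in 17 of the 49 genes with a positive sign and in 0 with a negative sign (edgeR glmQLFTest, FDR under 0.05 over all tested genes), against 6.1% of all genes positive and 10.8% negative. The value was positive in 47 genes, all but Tyms and Tk1 (background 47.6%). In all 17 called genes the EV mean was lower in mouse 2 than in mouse 1 (log2 difference of mouse 2 minus mouse 1 from -0.84 to -0.49). In 15 of them the BCR-ABL1 mean was higher in mouse 2. A positive interaction favours both signs, so these counts are not a separate result. Over all 49 genes the EV mean was lower in mouse 2 in 47 and the BCR-ABL1 mean higher in 41. For these counts of means the share of all genes was not computed.

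**Figure D3:**
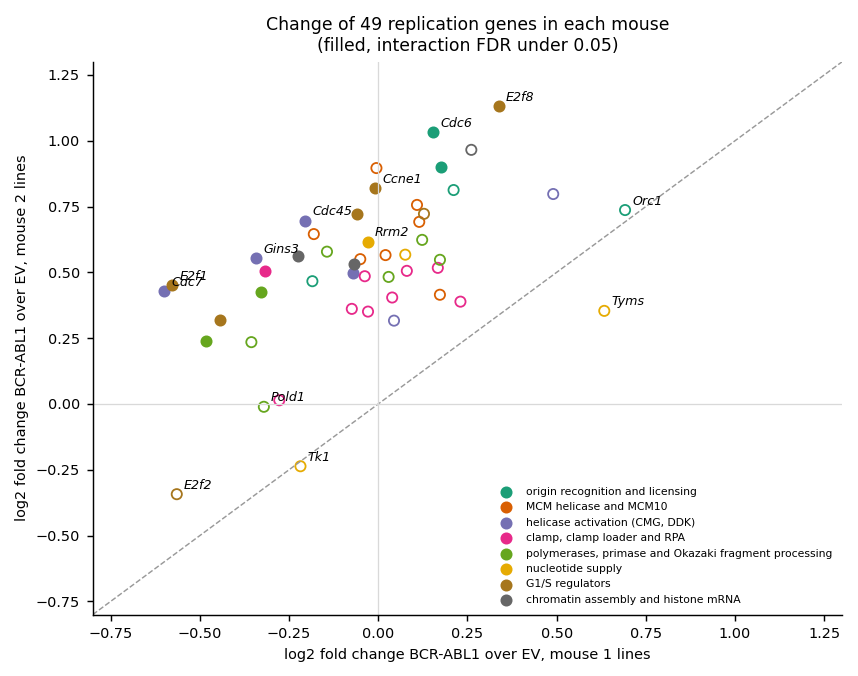
Log2 fold change of BCR-ABL1 over EV lines in mouse 1 (x axis) and mouse 2 (y axis) for the 49 replication genes, coloured by role, with filled points for an interaction FDR under 0.05 and the dashed line marking equal change. All points but Tyms and Tk1 lie above the dashed line, and the filled ones include Cdc7 (-0.60 and 0.43) and E2f1 (-0.58 and 0.45).

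By role the interaction was called in 4 of the 6 helicase activation genes (Gins3, Cdc45, Cdc7, Dbf4), in 5 of the 7 G1/S regulators (Ccne1, Ccne2, E2f1, E2f7, E2f8) and in 2 each of licensing (Cdc6, Gmnn), polymerases (Pola2, Prim1) and the chromatin group (Chaf1a, Slbp). It was called in 1 of the 9 clamp, loader and RPA genes (Rfc5), in 1 of the 4 nucleotide supply genes (Rrm2) and in 0 of the 7 MCM genes. The count depended on single lines. Without EV line 2C it was 43 (background 15.5% positive), which then included all 7 MCM genes and left out Orc1, Rfc1, Rpa3, Tyms, Tk1 and E2f2. It fell to 10 without EV line 1A (background 4.33%), BCR-ABL1 line 1A (4.28%) or BCR-ABL1 line 1B (4.29%), to 11 without EV line 2A (5%), BCR-ABL1 line 2A (5.2%) or BCR-ABL1 line 2B (4.21%), and to 8 without BCR-ABL1 line 1C (3.99%), so the share of all genes fell with it. No single omission takes out EV lines 2A and 2B together, and the share of all genes for the next count was not computed. In 8 genes, Gins3, Cdc45, Cdc7, Rfc5, Rrm2, Ccne1, E2f1 and E2f7, the interaction was called whichever single line was left out. Without EV lines 2A and 2B together, when line 2C alone stands for EV of mouse 2 and is assumed to vary like the other lines, it was called in 17 genes with a positive sign (background 16.6%), 14 of them shared with the 17 of all lines, and in Tyms with a negative sign (background 19.4%). The sizes were smaller without these lines. The median interaction of the 49 genes was 0.25 in place of 0.59, and Cdc6 was at 0.44 in place of 0.88, Gmnn at 0.36 in place of 0.72 and Dbf4 at 0.31 in place of 0.57, whereas Ccne1 was at 0.77 and E2f7 at 0.71, near their values in all lines.

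Cdc7, the kinase that triggers firing of licensed origins (chr5:106964322-106984432), had one of the largest of these differences. It was at 136, 117 and 128 CPM in EV lines of mouse 1 (A to C) and at 72.1, 63.5 and 83.8 CPM in those of mouse 2, and at 81.9, 83.7 and 83.8 CPM and 107, 92.6 and 93.4 CPM in the BCR-ABL1 lines. The mouse 1 EV lines were above, and EV lines 2A and 2B below, every BCR-ABL1 line. Its log2 fold change was -0.60 in mouse 1 and 0.43 in mouse 2 (interaction 1.03, FDR = 0.000791 by edgeR). The regulatory subunit Dbf4 had an interaction of the same sign (0.57, FDR = 0.0347 by edgeR), with 92.7, 146 and 164 CPM in EV lines and 149, 153 and 169.8 CPM in BCR-ABL1 lines (lowest, median, highest).

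Cdc45 and Gins3, parts of the active helicase, also had their lowest levels in EV lines 2A and 2B. Cdc45 (chr16:18780447-18811987) was at 117, 103 and 110.4 CPM and 62.1, 53.9 and 82.1 CPM in EV lines of mouse 1 and mouse 2, and at 93.3, 97.1 and 94.1 CPM and 115, 101 and 102 CPM in BCR-ABL1 lines (interaction 0.90, FDR = 0.00681 by edgeR). Gins3 (chr8:95633453-95645060) was at 39.7, 36.1 and 38.2 CPM and 21.8, 18.9 and 25.9 CPM in EV lines, and at 29.9, 30.8 and 28.6 CPM and 34.1, 29.4 and 33.5 CPM in BCR-ABL1 lines (interaction 0.89, FDR = 0.00273 by edgeR). In Gins3 all EV lines of mouse 1 were above, and all EV lines of mouse 2 below, each of the 6 BCR-ABL1 lines, whereas in Cdc45 the ranges of mouse 1 EV lines and mouse 2 BCR-ABL1 lines met. Rfc5, a small clamp loader subunit (chr5:117378103-117389047), was at 125, 107 and 113 CPM and 63.1, 56.5 and 83.8 CPM in EV lines, and at 92.9, 90.9 and 91.4 CPM and 106, 89.2 and 91.1 CPM in BCR-ABL1 lines (interaction 0.82, FDR = 0.0115 by edgeR). None of the other 8 genes of the clamp group was called, although 6 of them were called without EV line 2C.

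**Figure D4:**
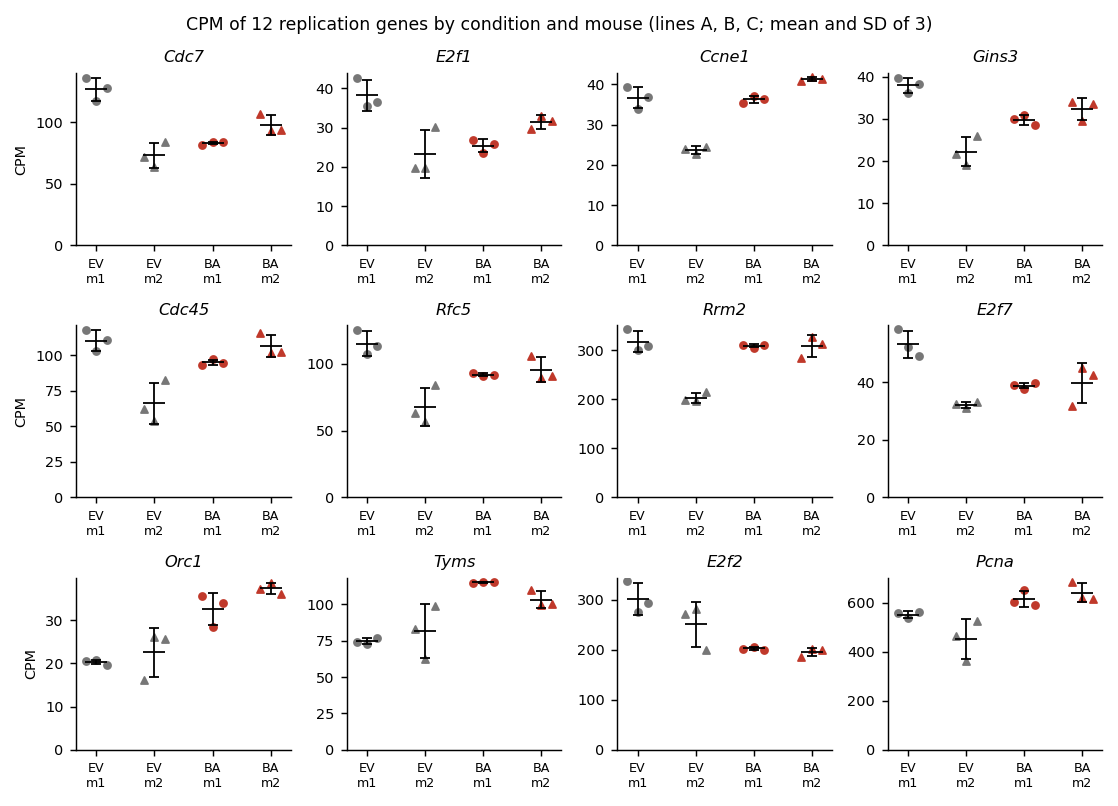
CPM of 12 replication genes (y axis, from 0) in EV lines (grey) and BCR-ABL1 lines (BA, red) of mouse 1 (m1, circles) and mouse 2 (m2, triangles), with mean and SD of 3 lines. In Cdc7 the mouse 1 EV lines reach 136 CPM and the mouse 2 EV lines 63.5 to 83.8 CPM, whereas in Orc1 both mice show higher BCR-ABL1 lines.

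Ccne1, the cyclin E that activates Cdk2 at the start of S phase (chr7:38097984-38107534), had the lowest interaction FDR of the 49. It was at 39.3, 34.0 and 36.9 CPM in EV lines of mouse 1 and 23.9, 22.6 and 24.4 CPM in EV lines of mouse 2, and at 35.4, 37.0 and 36.3 CPM and 40.8, 41.8 and 41.4 CPM in BCR-ABL1 lines (interaction 0.83, FDR = 0.000288 by edgeR). Here EV line 2C was as low as 2A and 2B, unlike in most of the genes. E2f1, the founding activator of the E2F family (chr2:154559407-154569892), was at 42.6, 35.4 and 36.6 CPM and 19.6, 19.6 and 30.3 CPM in EV lines, and at 26.8, 23.5 and 25.9 CPM and 29.7, 33.0 and 31.7 CPM in BCR-ABL1 lines (interaction 1.03, FDR = 0.00829 by edgeR). Its repressor relative E2f7 (chr10:110745439-110787384) was at 58.5, 52.2 and 49.2 CPM and 32.5, 31.0 and 33.1 CPM in EV lines, and at 39.2, 37.9 and 39.7 CPM and 31.7, 45.1 and 42.5 CPM in BCR-ABL1 lines (interaction 0.76, FDR = 0.0102 by edgeR). E2f7 also had all its mouse 2 EV lines at a similar level, and so did Rrm2 (chr12:24708241-24714146), at 343, 301 and 309 CPM and 199, 196 and 214 CPM in EV lines and 311, 305 and 312 CPM and 284, 328 and 314 CPM in BCR-ABL1 lines (interaction 0.64, FDR = 0.0034 by edgeR). In Rrm2 the mouse 1 EV lines and the BCR-ABL1 lines of both mice shared a range, and the mouse 2 EV lines lay below it.

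The other 8 genes with a called difference had interactions between 0.60 (Slbp, FDR = 0.011) and 0.88 (Cdc6, FDR = 0.0252), and Chaf1a had the FDR nearest the threshold (0.049). Prim1 and Slbp kept the call in 11 of the 12 omissions of a single line. Pola2 and Ccne2 kept it in 5, Cdc6 and E2f8 in 4, Gmnn in 2 and Chaf1a in 1. Dbf4, described above, kept it in 2. Lowest, median and highest levels were 102, 156 and 184 CPM in EV lines and 136, 147 and 174 CPM in BCR-ABL1 lines for Prim1 and 202, 277 and 319.7 CPM and 289.6, 303 and 357 CPM for Slbp. In both genes the highest EV values came from mouse 1 and the lowest from mouse 2. Pola2 ranged over 65.9, 108 and 139.9 CPM and 87.2, 91.2 and 95.7 CPM, Ccne2 over 72.9, 128 and 152 CPM and 134, 141 and 175 CPM, and Chaf1a over 76.3, 133 and 168 CPM and 121, 136 and 153 CPM in the same order. In Pola2 the BCR-ABL1 lines filled a narrow band inside the EV range, and in Cdc6, Gmnn and E2f8 the change was positive in both mice and larger in mouse 2.

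Genes around the 49 were counted from lists of the same pathways, 114 genes in 7 lists. A single gene was called at 1.5-fold, against 12.5% of all tested genes in either direction. Rrm2b, the reductase subunit used outside S phase, was lower in BCR-ABL1 lines (log2 fold change -1.08, SE 0.21, FDR = 0.0268 by edgeR), with 88.9, 92.3 and 95.8 CPM in EV lines of mouse 1, 91.0, 140.4 and 46.6 CPM in those of mouse 2 and 41.1 to 49.3 CPM in BCR-ABL1 lines. EV line 2C lay within the BCR-ABL1 range. The call was near the threshold and was lost without EV line 2B (FDR = 0.0522), BCR-ABL1 line 1C (0.0529), 2B (0.0501) or 2C (0.0503), without EV lines 2A and 2B together (0.0809, log2 fold change -0.90), with the line pair as replicate block (0.0563), in mouse 2 lines alone (0.262) and with DESeq2 (0.147). Without EV line 2C its FDR was 0.000408, and Samhd1, Shmt1 and Cdc25b were called in addition, against 18.2% of all genes. In the other lists 0 genes were called, and the largest changes were those of Orc2 (0.41) among 14 other origin and loading genes, Dna2 (0.81, FDR = 0.233 by edgeR) among 19 other fork genes, and Hells (0.71) among 9 chromatin and DNA methylation genes. Cdc25b, a phosphatase that acts mostly on the entry to mitosis, had a log2 fold change of -0.97 (FDR = 0.09 by edgeR), the largest of 23 other G1/S regulators, and Rad9a had -0.42, the largest of 10 checkpoint genes. Ccnb1, cyclin B1, had 0.65 (FDR = 0.296 by edgeR), the largest of 25 mitosis genes. Samhd1, which degrades deoxyribonucleotides, had the most negative value of the 14 other nucleotide supply genes (-1.30), but its SE was 0.46, as EV lines spread from 12.1 CPM in line 2C to 114 CPM in line 2B.

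The difference between the mice was called with a positive sign in 6 of the 14 other origin and loading genes, 9 of the 19 fork genes, 0 of the 14 nucleotide supply genes, 1 of the 9 chromatin genes, 7 of the 23 G1/S regulators, 1 of the 10 checkpoint genes and 17 of the 25 mitosis genes, and in none of these lists with a negative sign (6.1% of all genes positive and 10.8% negative). Without EV lines 2A and 2B the positive counts were 6, 8, 2, 0, 10, 1 and 18 in the same order (background 16.6%), and 8 nucleotide supply genes, 4 fork genes, 1 chromatin gene and 1 G1/S regulator were negative (background 19.4%). Without EV line 2C alone the positive counts were 10, 13, 9, 6, 13, 6 and 22 (background 15.5%), and 1 fork gene, 2 nucleotide supply genes, 1 chromatin gene and 3 G1/S regulators were negative (background 20.5%). The lists differed in EV line 2C. The 25 mitosis genes had a median deviation of -0.30 in EV line 2C, near that of 2A (-0.28) and 2B (-0.43), whereas the 49 replication genes were at -0.02 in 2C, -0.40 in 2A and -0.65 in 2B. The 14 other nucleotide supply genes were at 0.27 in 2C, -0.42 in 2A and -0.97 in 2B. So by the median of all 49 genes EV line 2C was near the mouse 1 EV lines, and in mitosis genes it was near its sister lines. The roles differed. MCM genes were at 0.05 in EV line 2C and 0.02 to 0.17 in mouse 1 EV lines. G1/S regulators were at -0.23 in 2C, 0.12 to 0.23 in mouse 1 EV lines and -0.50 and -0.58 in 2A and 2B. The chromatin group (-0.20, against 0.04 to 0.13 in mouse 1) and helicase activation (-0.13, against 0.14 to 0.27) also lay lower in 2C.

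**Figure D5:**
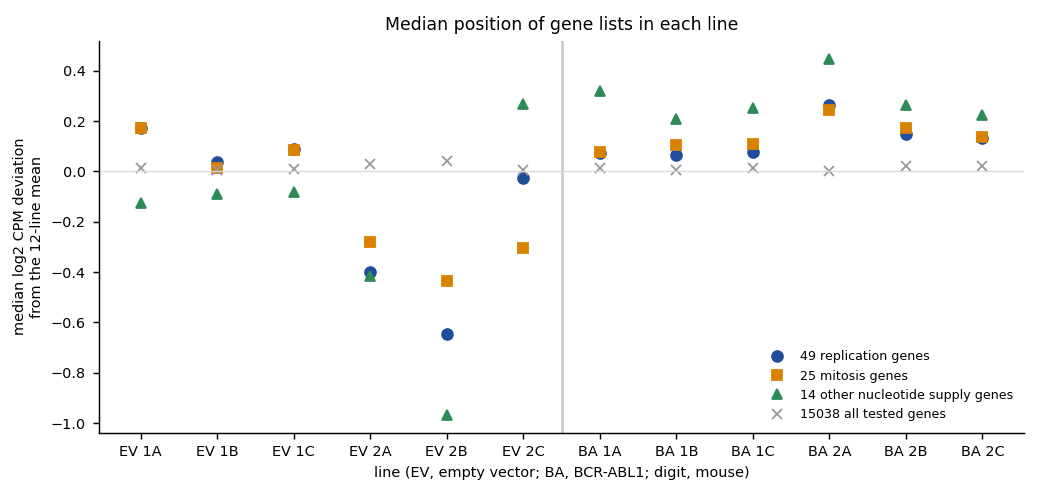
Median log2 CPM deviation from the mean of the 12 lines (y axis) in each line for the 49 replication genes, 25 mitosis genes, 14 other nucleotide supply genes and all tested genes. In EV line 2C the replication genes are at -0.02 and the mitosis genes at -0.30, while all tested genes stay near 0.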

How the data were processed

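RNA of 12 lines was sequenced from stranded total RNA libraries. The authors deposited whole-number counts per gene and line, without normalization or pooling. The submitters' processing notes name FastQC 0.11.5, Trimmomatic 0.36, TopHat2 2.1.1, Bowtie2 2.3.2, featureCounts 1.5.3, R 3.6.1, edgeR 3.18.1 and GRCm38, without role or order. The strand setting of counting is not given in the sources used here.

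Symbols came from GENCODE M21 (51633 of 51826 identifiers). Genes passing filterByExpr were TMM-scaled and tested in R 4.3.3 with edgeR 4.0.16 (glmQLFit, glmTreat at 1.5-fold, Benjamini-Hochberg over 15038 genes, FDR 0.05), and the interaction of mouse and condition by glmQLFTest. The study names a likelihood ratio fit, run as an alternative beside DESeq2 1.42.0, other scalings and filters, replicate blocks, single mice and omission of each line. Log2 CPM used a prior count of 2, and SE was computed from log2 CPM of the 6 lines in each condition. Exact permutation ran over 924 splits, or 400 within mice (smallest p 0.005), and its p-values were not adjusted over genes. FPKM is TMM-scaled CPM per kilobase of joined exons. Markers with 3 or fewer counts in every line are described as at the floor. Fits were tested on simulated data. Plots used matplotlib 3.10.9.

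The 49 genes, the other lists and the rule for named genes were chosen with earlier results of these data known. By that rule, levels are given line by line or as lowest, median and highest for genes called at 1.5-fold, genes whose change differs between the mice and the gene of the largest change in each role, with the 2 highest FPKM per role, and from each other list up to 3 called genes per direction or else the gene of the largest change.

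Replicate names run from 1A to 2C in both conditions. Per the labels their digit names the mouse, so lines are paired by mouse. Deviations from the condition means correlated at 0.0853 to 0.240 between conditions within a mouse and at -0.203 to -0.0636 across mice. No 2 lines agreed within sampling noise (chi-square per gene at least 9.96 between lines of one mouse and condition).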

Additional observations from a re-analysis of the deposited data

Results flagged for a closer look

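In 17 genes the change between BCR-ABL1 and EV lines differed between the 2 mice by edgeR's interaction test (background 6.1% of all genes positive). Only 8 of the 17 kept this call whichever single line was left out. The log2 difference of mouse 2 minus mouse 1 was positive in all 17. In helicase activation it was 1.03 for Cdc7, 0.90 for Cdc45, 0.89 for Gins3 and 0.57 for Dbf4. Among G1/S regulators it was 1.03 for E2f1, 0.83 for Ccne1, 0.79 for E2f8, 0.78 for Ccne2 and 0.76 for E2f7. Cdc6 and Gmnn of the licensing group had 0.88 and 0.72, Prim1 and Pola2 of the polymerase group had 0.75 and 0.72, and Chaf1a and Slbp had 0.79 and 0.60. Rfc5 had 0.82 and Rrm2 had 0.64.

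Relative to the spread of its condition, a single line lay far from the other 5 in 14 of the 98 groups of 6 examined. Chance flags about 1 in 20. In all 14 it was BCR-ABL1 line 2A. It was the highest BCR-ABL1 line, in CPM, for Orc6 (87.0), Gmnn (125), Mcm5 (476), Mcm6 (577), Dbf4 (169.8), Rfc2 (123), Rfc4 (81.5), Rfc5 (106), Rpa2 (162), Prim1 (174), Fen1 (198), Ccne2 (175) and Slbp (357). It was the lowest for E2f2 (186). The genes share these libraries and are not independent of each other.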

How the results depend on the processing

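No replication gene was called at 1.5-fold under any alternative other than the test against no change, which called 13 higher and 1 lower. The 49 genes had a median change on the log2 scale of -0.029 in mouse 1 lines and 0.53 in mouse 2 lines alone. With mouse as replicate block 0 genes were called and the median was 0.24, and with the line pair as replicate block 0 were called and it was 0.25, so the block changed no call of a replication gene. The difference between the mice was called in 30 genes without a gene filter (2.5% of all genes positive) and in 8 to 43 when single lines were left out (3.99% to 15.5%). RLE scaling gave 15 (6.06%), the likelihood ratio test 22 (6.64%) and DESeq2 23 (8.37%), the last 2 chosen after seeing the data. The cause of these shifts was not tested.

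With a CPM filter the log2 fold change of Prim1 changed sign, to -0.00499. In mouse 1 alone, log2 fold changes turned negative in 18 genes: Cdt1 -0.18, Mcm2 -0.18, Mcm5 -0.050, Mcm10 -0.0051, Gins3 -0.34, Cdc45 -0.21, Dbf4 -0.072, Rfc2 -0.074, Rfc3 -0.029, Rfc4 -0.038, Rfc5 -0.32, Pole -0.14, Prim1 -0.33, Rrm2 -0.030, Ccne1 -0.0082, Ccne2 -0.059, Chaf1a -0.22 and Slbp -0.069. In mouse 2 alone, 6 turned positive: Cdc7 0.43, Rfc1 0.014, Pola2 0.24, Lig1 0.23, E2f1 0.45 and E2f7 0.32. Without EV lines 2A and 2B, chosen after seeing the data, 10 turned negative: Cdt1 -0.029, Mcm2 -0.069, Gins3 -0.18, Cdc45 -0.048, Dbf4 -0.0019, Rfc2 -0.034, Rfc5 -0.21, Pole -0.058, Prim1 -0.19 and Chaf1a -0.087. Leaving out single lines moved Rfc5 between -0.084 and 0.17, Prim1 between -0.086 and 0.098, Gins3 between -0.069 and 0.16, Lig1 between -0.23 and 0.014, E2f1 between -0.22 and 0.028 and E2f7 between -0.21 and 0.016.

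The other lists were put through the same alternatives after the data had been seen. Against no change, called genes numbered 4 of origin and loading, 5 of fork, 9 of nucleotide supply, 4 of chromatin, 10 of G1/S, 2 of checkpoint and 11 of mitosis genes, beside 48.5% of all genes. Mouse 1 alone gave 1 fork, 2 nucleotide supply and 1 G1/S gene, beside 28.5% of all genes. The nucleotide supply count was 0 with DESeq2 (9.62% of all genes) and with the line pair as replicate block (11.2%). It was also 0 in mouse 2 alone (6.64%) and without EV lines 2A and 2B (15.5%). Without single lines (10.7% to 18.2% of all genes) it was 0 to 3, and the G1/S count was 0 to 1. The lowest count of the 49 genes in any line was 523.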
